A study of Drosophila melanogaster with 36 samples.

Results

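The Epsilon class glutathione S-transferases GstE1 to GstE10 were followed through recovery from heat in whole adult female Drosophila melanogaster. They were found on the array by current gene symbol or synonym, taking probe sets annotated to a single gene and, where several existed, the one of highest mean. All 10 genes had 1 such probe set, among 10844 genes represented in this way. Messenger RNA was measured on 36 single-colour oligonucleotide arrays with biotin-labelled total RNA. A line selected for heat resistance and a nonselected line were each sampled at 0.25, 1, 2, 4, 8, 16, 32 and 64 h after 1 h at 36 °C and untreated, with 2 biological replicates, which makes 18 groups of 2 arrays. The labels name no genotype, age, number of flies per sample, number of selected populations or time of day. Each line had 1 untreated group, and no separate untreated group accompanied any time after heat. Heat can therefore not be told apart from time of day at any time, nor from age at late times.

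Glutathione S-transferases join the tripeptide glutathione to reactive, often toxic molecules, which makes these more soluble and easier to export. The Epsilon class is found in insects, where it is known for insecticide resistance and for handling the aldehydes that form when membrane lipids are oxidised. In Drosophila most Epsilon genes lie in a tandem cluster that arose by gene duplication. GstE1 is known to conjugate the lipid peroxidation product 4-hydroxynonenal, and GstE2 of the mosquito Anopheles gambiae is known for breaking down DDT. In the RefSeq annotation of the Release 6 plus ISO1 MT assembly the 10 genes were consecutive protein-coding genes of chromosome arm 2R, in the order GstE10, GstE1, GstE2, GstE3, GstE4, GstE5, GstE6, GstE7, GstE8 and GstE9. The annotated spans of GstE10 and GstE1 overlapped, as did those of GstE9 and imd, an immune signalling gene. How far probe sets of such related or overlapping genes detect each other's RNA cannot be read from the sources used here.

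Values are GCRMA intensities on the log2 scale, where a difference of 1 is a doubling of signal. Levels of different probe sets are not compared with each other. A probe set was tested when its 4 highest arrays averaged at least 5, an intensity of 32. GstE4 did not reach this level: its 36 values ran from 3.12 to 3.80 with a median of 3.27. The other 9 members were tested among 8199 probe sets. GstE1, GstE3, GstE6, GstE7, GstE8 and GstE9 lay above 32 on all 36 arrays, whereas GstE2 and GstE5 were each under 32 on 12 arrays and GstE10 on 22. The 4 highest GstE10 arrays, at 5.96 to 6.37, came from 8, 16 and 64 h. Its arrays before 8 h alone would not have passed the filter. The array medians ran from 43.5 to 52.1, and setting them equal changed some calls, as given in the last section.

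One array stood apart. Of 23 male reproductive tract genes, 21 had their highest value on the array of the selected line at 32 h, replicate 2, and the summed intensity of the list there was 3319, against a median of 234 over the 4 arrays of that time and 200 over the untreated arrays. Values at 32 h, late differences and line differences are therefore also given without it for several members. The replicate numbers also differed: the log2 ratio of 3' to 5' control probe sets averaged 2.28 ± 0.20 on replicate 1 arrays and 1.55 ± 0.14 on replicate 2 arrays (SD, n = 18 each).

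**Figure D1:**
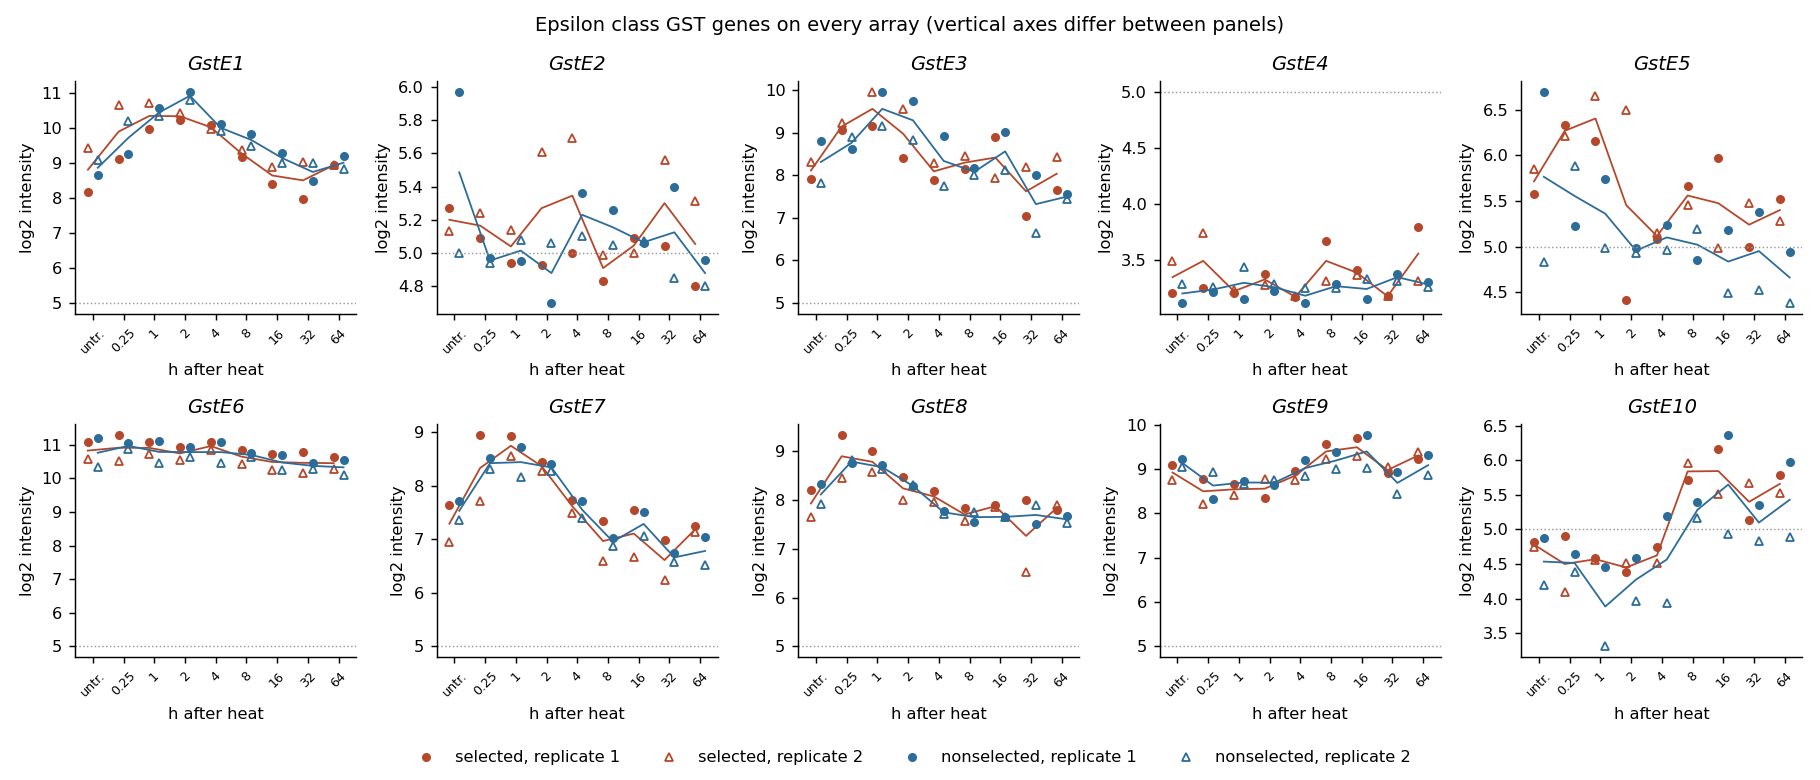
Log2 intensity of each of the 10 genes (vertical axes, scaled per gene) in untreated flies and at 8 times after heat (horizontal axis, equal spacing), for the selected line (red) and the nonselected line (blue). Circles are replicate 1, triangles replicate 2, lines join group means and the dotted line marks a log2 intensity of 5. GstE1, GstE3, GstE7 and GstE8 peak between 0.25 and 2 h, GstE10 lies highest from 8 h on, and GstE4 stays below the dotted line throughout.

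The question asked of the time series was which members changed after heat and when. Over the 8 times together, 6 of the 9 tested members changed by limma's moderated F-test: GstE1, GstE3, GstE7, GstE8, GstE9 and GstE10. Over all tested probe sets 13.2% were called by this test. GstE10 was among the tested members only because of its values from 8 h on. The adjusted p was 2.73e-05 for GstE7, 0.000193 for GstE1, 0.000975 for GstE8, 0.00524 for GstE10, 0.0057 for GstE3 and 0.00881 for GstE9. It was 0.421 for GstE5, 0.489 for GstE6 and 0.9 for GstE2. The 6 calls held in each of the 36 fits that left out 1 array. At single times, 2 members were called at 1 h and 1 at 2 h, beside 1.27% and 1.17% of all tested probe sets. No member was called at the other times by limma's adjusted p, where the background was 0.756% at 0.25 h, 0.354% at 4 h, 1.06% at 8 h, 2.39% at 16 h, 1.1% at 32 h and 3.57% at 64 h. An unadjusted p under 0.05 was reached by 4 members at 0.25 h, 1 at 4 h, 1 at 8 h, 2 at 16 h, 2 at 32 h and 1 at 64 h. Of all 8199 tested probe sets 485, 372, 746, 963, 1105 and 1162 reached it at these times. The members that changed fell into 2 temporal patterns, described here after their values were seen: GstE1, GstE3, GstE7 and GstE8 were highest soon after heat, and GstE9 and GstE10 were highest at 16 h.

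GstE1 had the largest early change of the tested members. At 2 h it had 10.25 and 10.44 in selected flies and 11.05 and 10.81 in nonselected flies, against 8.19 and 9.44 in untreated selected flies and 8.65 and 9.09 in untreated nonselected flies. At 1 h the values were 9.98 and 10.73 in selected flies and 10.57 and 10.34 in nonselected flies. All heated arrays of both times lay above all 4 untreated arrays, as they did for 3.85% of all tested probe sets at 2 h. GstE1 rose by 1.56 ± 0.31 at 1 h (log2, SE, 2.95-fold, limma adjusted p = 0.00854) and by 1.79 ± 0.31 at 2 h (3.47-fold, adjusted p = 0.00212). It was the only member called at 2 h. At 0.25 h its change was 0.97 ± 0.31 and at 4 h 1.18 ± 0.31, with adjusted p of 0.29 and 0.161.

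The mean GstE1 level was 8.85 ± 0.54 in untreated flies, 9.82 ± 0.75 at 0.25 h, 10.41 ± 0.33 at 1 h, 10.64 ± 0.36 at 2 h, 10.02 ± 0.09 at 4 h, 9.47 ± 0.27 at 8 h, 8.90 ± 0.37 at 16 h, 8.63 ± 0.50 at 32 h and 8.98 ± 0.16 at 64 h (SD, n = 4 each). When the 9 states were ordered by level, the range of every state overlapped that of the next. The 4 h arrays were also all above the untreated arrays (background 2.67%), and from 8 h on the ranges overlapped the untreated range. The 32 h change of -0.21 ± 0.31 was -0.48 ± 0.33 without the array that stood apart. Where only the arrays compared entered the fit, the adjusted p was 0.0836 at 1 h and 0.0616 at 2 h. The 1 h call was also lost without replicate 1 of either untreated group or without replicate 2 of the selected line at 1 h, with adjusted p up to 0.0944.

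GstE7 was the other member called at 1 h. It had 8.93 and 8.56 in selected flies and 8.72 and 8.16 in nonselected flies at 1 h, against 7.64 and 6.94 in untreated selected flies and 7.71 and 7.35 in untreated nonselected flies. The groups did not overlap, and GstE7 rose by 1.19 ± 0.26 (2.27-fold, limma adjusted p = 0.0179). At 2 h its 4 arrays lay within 8.28 to 8.45, again above every untreated array, for a change of 0.95 ± 0.26 with an adjusted p of 0.0966. At 0.25 h the change was 0.97 ± 0.26, with an adjusted p of 0.119 and 1 selected array, at 7.71, inside the untreated range. With the replicate number as a block, the GstE7 adjusted p was 0.000744 at 0.25 h and 0.00084 at 2 h.

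After 2 h the GstE7 level was lower. It averaged 7.41 ± 0.35 in untreated flies, 8.38 ± 0.52 at 0.25 h, 8.59 ± 0.33 at 1 h, 8.35 ± 0.09 at 2 h, 7.58 ± 0.17 at 4 h, 6.96 ± 0.31 at 8 h, 7.20 ± 0.41 at 16 h, 6.63 ± 0.32 at 32 h and 6.98 ± 0.33 at 64 h (SD, n = 4 each). In order of level, the ranges of neighbouring states overlapped except between 2 h and 4 h. The 32 h change was -0.78 ± 0.26 with an adjusted p of 0.177 (0.00752 with the replicate number as a block), and -0.59 ± 0.28 without the array that stood apart. The 1 h call had an adjusted p of 0.0701 where only the arrays compared entered the fit. It was lost, with adjusted p up to 0.129, without replicate 1 of either line at 1 h or replicate 2 of either untreated group.

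GstE3 resembled GstE7 in its course but was not called at any single time by limma's adjusted p. At 1 h it had 9.16 and 9.97 in selected flies and 9.96 and 9.17 in nonselected flies, against 7.92 and 8.31 in untreated selected flies and 8.81 and 7.82 in untreated nonselected flies. The groups did not overlap, and the change was 1.35 ± 0.38 (2.55-fold, limma adjusted p = 0.101). After array medians were set equal, the change was 1.40 with an adjusted p of 0.0425. The mean level was 8.22 ± 0.45 in untreated flies, 8.95 ± 0.26 at 0.25 h, 9.57 ± 0.46 at 1 h, 9.14 ± 0.63 at 2 h, 8.22 ± 0.53 at 4 h, 8.19 ± 0.20 at 8 h, 8.49 ± 0.54 at 16 h, 7.48 ± 0.75 at 32 h and 7.77 ± 0.45 at 64 h (SD, n = 4 each). Each state overlapped the next in order of level, and at 2 h 1 selected array, at 8.40, lay inside the untreated range. The 32 h change of -0.74 was -1.03 ± 0.41 without the array that stood apart, with an adjusted p of 0.425.

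GstE8 was highest at the first time sampled. At 0.25 h it had 9.34 and 8.46 in selected flies and 8.76 and 8.82 in nonselected flies, against 8.21 and 7.65 in untreated selected flies and 8.32 and 7.91 in untreated nonselected flies. All 4 heated arrays were above all 4 untreated ones (background 2.09%). The change was 0.82 ± 0.23 at 0.25 h (adjusted p = 0.156) and 0.71 ± 0.23 at 1 h (adjusted p = 0.208), where the groups did not overlap either. With the replicate number as a block, the adjusted p at 0.25 h was 0.0476. The mean level was 8.02 ± 0.30 in untreated flies, 8.84 ± 0.37 at 0.25 h, 8.73 ± 0.19 at 1 h, 8.27 ± 0.20 at 2 h, 7.91 ± 0.21 at 4 h, 7.68 ± 0.14 at 8 h, 7.77 ± 0.13 at 16 h, 7.48 ± 0.67 at 32 h and 7.72 ± 0.15 at 64 h (SD, n = 4 each). The ranges of 1 h and 2 h were the only neighbours in this order that did not overlap. The lowest of its 36 values, 6.53, came from the array that stood apart: the 32 h change of -0.54 ± 0.23 was -0.17 ± 0.19 without it. The 0.25 h change had an adjusted p of 0.0161 when either array of the selected line at 32 h was left out, since both enter the estimate of the spread.

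At 1 h, then, 4 of 9 tested members lay above the untreated range on every heated array, and 4.05% of all tested probe sets did so. One member, GstE9, lay below it on every heated array, as 2.83% of probe sets did. The median log2 change at 1 h was 0.14 over the 9 members and 0.04 over all tested probe sets. The changes of GstE6, GstE5 and GstE2 at 1 h lay between -0.31 and 0.14, and the sign of each differed between the replicate numbers.

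**Figure D2:**
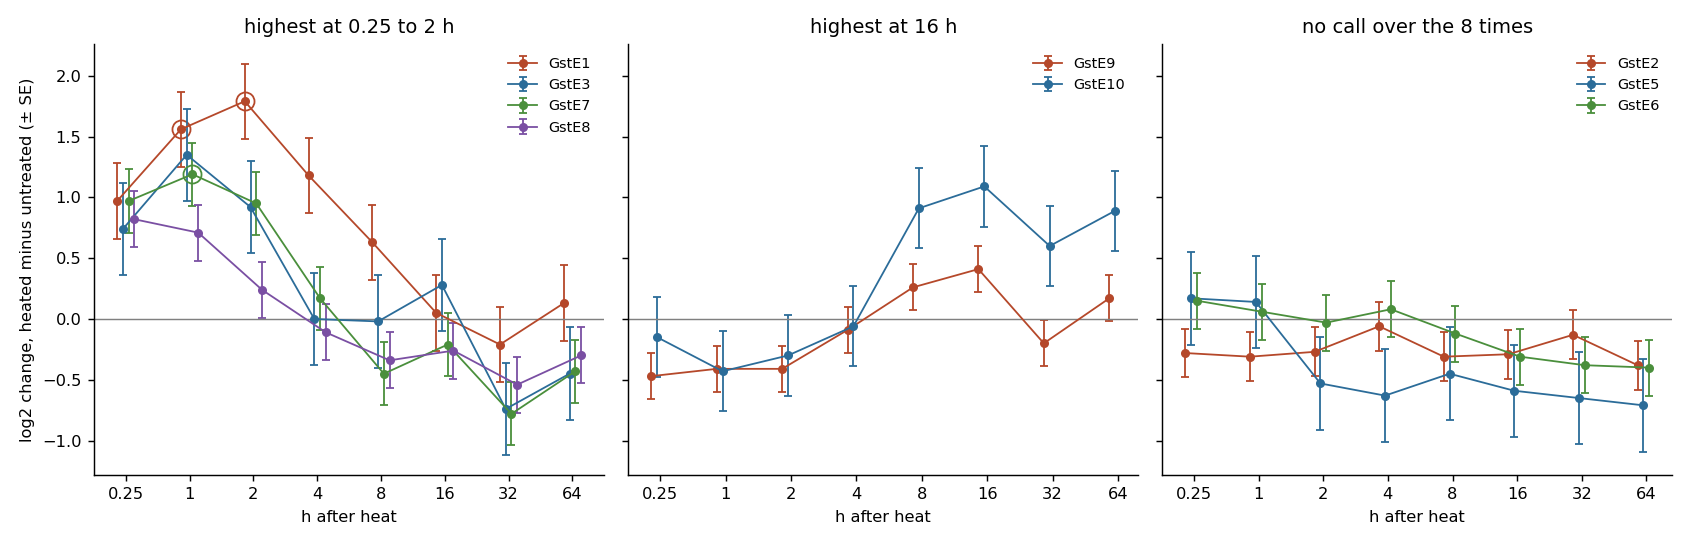
Log2 change from untreated flies (vertical axis, estimate ± SE, 4 arrays against 4, both lines) at each time after heat (horizontal axis, equal spacing). Open rings mark changes with an adjusted p under 0.05. GstE1 and GstE7 carry the 3 rings, at 1 and 2 h, and GstE10 lies between 0.60 and 1.09 from 8 h on.

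GstE9 ran the other way at early times. It had 8.67 and 8.41 in selected flies and 8.73 and 8.66 in nonselected flies at 1 h, against 9.09 and 8.75 in untreated selected flies and 9.23 and 9.04 in untreated nonselected flies. The change was -0.41 ± 0.19 at 1 h and 0.41 ± 0.19 at 16 h, with adjusted p of 0.574 and 0.386. Its mean level was 9.03 ± 0.20 in untreated flies, 8.56 ± 0.34 at 0.25 h, 8.62 ± 0.14 at 1 h, 8.62 ± 0.20 at 2 h, 8.94 ± 0.20 at 4 h, 9.29 ± 0.24 at 8 h, 9.44 ± 0.35 at 16 h, 8.83 ± 0.27 at 32 h and 9.20 ± 0.23 at 64 h (SD, n = 4 each). Neighbouring states in order of level overlapped. The overlapping gene imd, measured by the higher of its 2 probe sets, rose by 0.92 ± 0.12 at 1 h (adjusted p = 4.69e-05), where GstE9 had a negative change. At 8 h and 16 h both had positive changes, of 0.20 and 0.10 for imd and 0.26 and 0.41 for GstE9.

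GstE10 was low before and soon after heat and had its highest levels at 8, 16 and 64 h. At 16 h it had 6.17 and 5.52 in selected flies and 6.37 and 4.93 in nonselected flies, against 4.82 and 4.74 in untreated selected flies and 4.88 and 4.19 in untreated nonselected flies. All 4 untreated arrays lay under an intensity of 32, so the fold is a lower bound. With such arrays set to 32, GstE10 was at least 1.68-fold higher at 16 h, and the bounds for 8 h and 64 h were 1.48 and 1.46. At 8 h all 4 heated arrays were above 32 and so above every untreated array, as 5.89% of all tested probe sets were above the untreated range. At 16 h and 64 h 1 array each, at 4.93 and 4.89, was also under 32, so its order against the untreated arrays is not known. The fitted change was 0.91 ± 0.33 at 8 h (adjusted p = 0.3), 1.09 ± 0.33 at 16 h (adjusted p = 0.0963) and 0.89 ± 0.33 at 64 h (adjusted p = 0.182). With the replicate number as a block, the limma adjusted p was 0.0138 at 16 h and 0.0356 at 64 h, where 399 and 615 of 8199 probe sets were called. GstE10 entered the tests only through its values from 8 h on, so these p-values are not independent of the filter.

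The GstE10 mean level was 4.66 ± 0.32 in untreated flies, 4.51 ± 0.35 at 0.25 h, 4.23 ± 0.61 at 1 h, 4.36 ± 0.28 at 2 h, 4.59 ± 0.52 at 4 h, 5.56 ± 0.35 at 8 h, 5.75 ± 0.66 at 16 h, 5.25 ± 0.35 at 32 h and 5.54 ± 0.47 at 64 h (SD, n = 4 each). Of the 20 arrays from untreated flies to 4 h, 19 were under 32, against 3 of the 16 arrays from 8 h on. The states before 8 h are thus only bounded from above. Without the array that stood apart, the 32 h change of 0.60 was 0.46 ± 0.37.

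GstE6, GstE5 and GstE2 were not called over the 8 times. GstE6 stayed between 10.10 and 11.30 on all 36 arrays, with state means between 10.39 ± 0.25 at 64 h and 10.94 ± 0.32 at 0.25 h (SD, n = 4 each). These spreads hold a difference between the replicate numbers, of 0.45 ± 0.21 on average (SD, n = 18 groups). With the replicate number as a block, GstE6 was called over the 8 times (limma F-test, adjusted p = 0.00144), as were 2064 of 8199 probe sets. GstE5 spread widely between arrays of 1 state: untreated flies gave 5.58 and 5.85 in the selected line and 6.70 and 4.83 in the nonselected line, and 2 h gave 4.41 and 6.50 in the selected line. GstE2 lay between 4.70 and 5.97, near the intensity of 32 throughout.

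A second comparison set late against early heated flies: the mean of 16, 32 and 64 h minus the mean of 0.25, 1 and 2 h, 12 arrays against 12. The untreated arrays do not enter this difference, but they enter the estimate of the spread behind its SE and p. The comparison was added after the values had been seen, so it describes the 2 patterns and does not test them independently. Of the 9 tested members 8 differed, beside 35.3% of all tested probe sets. GstE9 and GstE10 were higher late (background 18.2%), and GstE1, GstE3, GstE5, GstE6, GstE7 and GstE8 were lower late (background 17.1%). The median difference was -0.57 over the members and -0.03 over all tested probe sets.

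GstE7 had 6.94 ± 0.40 late and 8.44 ± 0.34 early (SD, n = 12 each), a difference of -1.51 ± 0.15 (limma adjusted p = 1.5e-07). The late GstE7 arrays, at 6.23 to 7.54, did not overlap the early ones, at 7.71 to 8.95. GstE8 had 7.66 ± 0.39 late and 8.61 ± 0.35 early, a difference of -0.96 ± 0.13 (adjusted p = 1.17e-05), with the highest late array and the lowest early array both at 8.00 after rounding and no overlap. Of all tested probe sets 0.878% were lower late without overlap. GstE1 differed by -1.45 ± 0.18 (adjusted p = 2.66e-06) and GstE3 by -1.31 ± 0.22 (adjusted p = 0.000109), with 10 and 9 of 12 late arrays below every early array.

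GstE10 had 5.51 ± 0.51 late and 4.37 ± 0.41 early, a difference of 1.15 ± 0.19 (adjusted p = 9.7e-05). All 12 early arrays were under 32 and 9 of 12 late arrays were above it, so GstE10 was at least 1.43-fold higher late. It entered the test only through arrays from 8 h on, where it was high, so its call is not independent of the filter. GstE9 had 9.16 ± 0.37 late and 8.60 ± 0.22 early, a difference of 0.56 ± 0.11 (adjusted p = 0.000536). GstE6 fell by 0.42 ± 0.13 on the log2 scale (adjusted p = 0.0191). The GstE5 difference of -0.57 ± 0.22 had an adjusted p of 0.0485 and was the least stable: the call was kept in 8 of 36 fits with 1 array left out, its adjusted p was 0.075 with no filter on low values, and the difference was -0.14 within replicate 1 and -1.01 within replicate 2. GstE2 differed by 0.02 ± 0.12. Without the array that stood apart, 7 members were called and the largest shift among them was that of GstE8, to -0.83 ± 0.10.

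**Figure D3:**
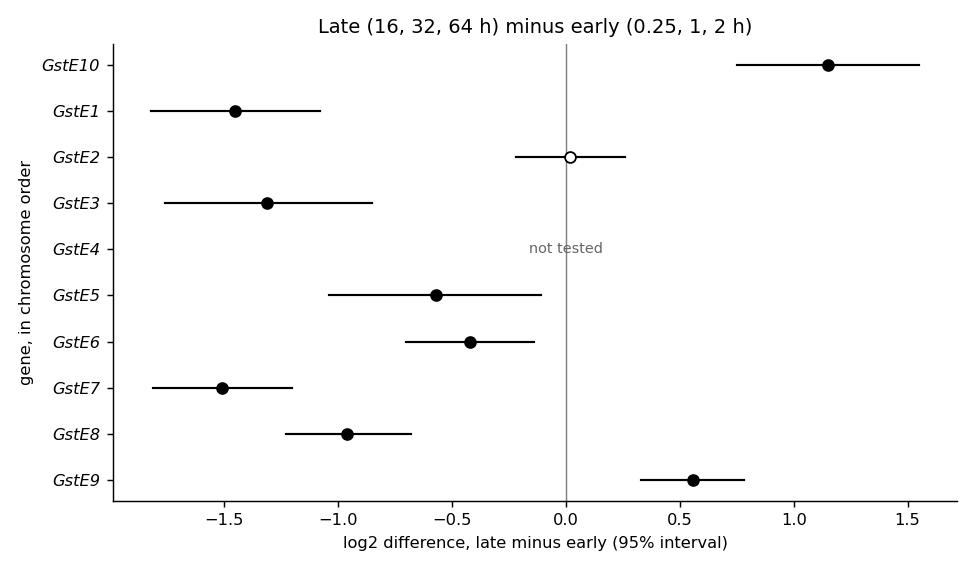
Log2 difference between late (16, 32, 64 h) and early (0.25, 1, 2 h) heated flies (horizontal axis, 95% interval, 12 arrays each) for the genes in their chromosome order (vertical axis). Filled points have an adjusted p under 0.05. The genes at both ends of the row, GstE10 and GstE9, lie above 0, and GstE1, GstE3, GstE5, GstE6, GstE7 and GstE8 lie below it.

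In the row of genes, the 2 members that were higher late were the outermost ones. The neighbours GstE7 and GstE8 had a Pearson r of 0.92 over the 18 group means of log2 intensity, as had GstE3 and GstE7, and GstE8 and its other neighbour GstE9 had an r of -0.69. These correlations share the same 18 groups and arrays and are descriptions only. None with another member is given for GstE10, whose early values have no order.

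Whole flies were measured, so fewer cells of a type and less RNA per cell cannot be told apart. Tissue markers were read beside the late minus early differences, where 18.2% of all tested probe sets were higher late and 17.1% lower. Of 7 Malpighian tubule markers on the array, 5 were higher late and none lower (Drip, Irk1, Irk2, Irk3, Oatp58Dc), and their summed intensity ran from 1703 to 2325 on late arrays and from 1370 to 1788 on early arrays. Of 13 eggshell markers, 9 were lower late, with sums of 4274 to 85002 late and 30151 to 104258 early. Midgut proteases had 7 of 16 higher and 2 lower (sums of 24466 to 65411 late, 25647 to 54111 early), and fat body markers 4 of 9 tested higher and 1 lower (36236 to 73526 late, 38939 to 70652 early). Germline markers had 2 of 12 lower (16.7%, near the share of all probe sets), at sums of 15897 to 22586 late and 19635 to 24199 early. No flight muscle marker of 9 was called, at sums of 8170 to 21633 late and 7228 to 29559 early. Without the array that stood apart, the highest late sums were 2131 for tubule, 73335 for eggshell, 53191 for midgut and 19485 for muscle markers, and the lowest late germline sum was 18673. On these 6 lists no marker was under an intensity of 32 on all 36 arrays, and the part of these tissues in the GstE differences was not tested.

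The lines were compared next, since one had been selected for heat resistance. No tested member differed between selected and nonselected flies over the 9 states, while 12.2% of all tested probe sets did. An unadjusted p under 0.05 was reached by 2441 of 8199 probe sets and by 1 member. That member, GstE5, averaged 5.63 ± 0.60 in selected flies and 5.13 ± 0.55 in nonselected flies (SD, n = 18 each), a difference of 0.49 with a 95% interval of 0.12 to 0.87 (limma adjusted p = 0.0757). With the replicate number as a block its adjusted p was 0.0489, and 2349 of 8199 probe sets were called. The other 8 differences lay between -0.19 for GstE1 and 0.27 for GstE10, and their intervals stayed within -0.50 and 0.59. The median was 0.05 over the members and -0.05 over all tested probe sets. Without the array that stood apart, no member was called either, and the differences were 0.47 for GstE5 (adjusted p = 0.12), 0.12 in place of 0.04 for GstE8 and -0.01 in place of 0.06 for GstE3.

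For GstE1, GstE2, GstE3, GstE7, GstE8, GstE9 and GstE10 the line difference had opposite signs within the replicate numbers. It was positive in both for GstE5 and GstE6. The smaller ones, in replicates 1 and 2, were 0.16 and -0.10 for GstE7, -0.04 and 0.04 for GstE9, and 0.06 and 0.04 for GstE6. Within replicate 1, GstE1 was lower in selected flies by a log2 difference of -0.48 (limma adjusted p = 0.0113) and GstE8 higher by 0.28 (adjusted p = 0.0365). Within replicate 2, selected flies were higher for GstE5 by 0.82 (adjusted p = 0.00291), GstE10 by 0.61 (adjusted p = 0.00363), GstE3 by 0.64 (adjusted p = 0.00655) and GstE2 by 0.30 (adjusted p = 0.0282). The same genes had other values in the other replicate: 0.09 for GstE1 and -0.19 for GstE8 in replicate 2, and 0.16 for GstE5, -0.07 for GstE10, -0.52 for GstE3 and -0.18 for GstE2 in replicate 1. Between the lines, 582 of 8199 probe sets were called within replicate 1 and 2975 within replicate 2. Each line has 1 array per state in these fits, so their p-values do not measure the spread between samples of a group. The difference between the replicate numbers was not tested.

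Over both replicates, GstE5 was past the threshold between the lines without the array of replicate 1 of the nonselected line untreated or at 32 h, of replicate 1 of the selected line at 2 h, or of replicate 2 of the selected line at 16 h. Of the 18 nonselected arrays, 10 were under an intensity of 32 for GstE5. Tissue markers also differed between the lines, beside 503 of 8199 probe sets that were higher in selected flies and 497 lower. Of 9 flight muscle markers 6 were higher in selected flies (Act87E, Mf, Mlc2, Tm2, TpnC41C and up), with a median log2 difference of 0.81 over the list. Their summed intensities ran from 10706 to 34335 in selected flies and from 7141 to 16970 in nonselected flies. Of 7 Malpighian tubule markers, Irk2 and Irk3 were higher, by 0.50 and 0.65, and of 9 tested fat body markers 4 were lower (Lsp2, Yp1, Yp2 and Yp3). The part of these tissues in the line differences was not tested. In untreated flies the line differences ran from -0.29 for GstE2 to 0.24 for GstE10. No member and 0% of probe sets were called there, with 148 of 8199 probe sets and no member at an unadjusted p under 0.05.

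The line by time interaction was called for no member and for 0% of tested probe sets, with 36 probe sets and no member at an unadjusted p under 0.05. GstE1 changed by 1.54 in selected flies and 1.58 in nonselected flies at 1 h, and the difference of the 2 changes was -0.04, with a 95% interval of -1.32 to 1.24. GstE7 changed by 1.46 in selected flies and 0.91 in nonselected flies at 1 h, with a difference of 0.55 (-0.52 to 1.62). For GstE10 at 16 h the difference of the changes was -0.04 (-1.42 to 1.33). With 2 arrays per group, the intervals of GstE7 and GstE10 reach values as large as the changes themselves.

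**Figure D4:**
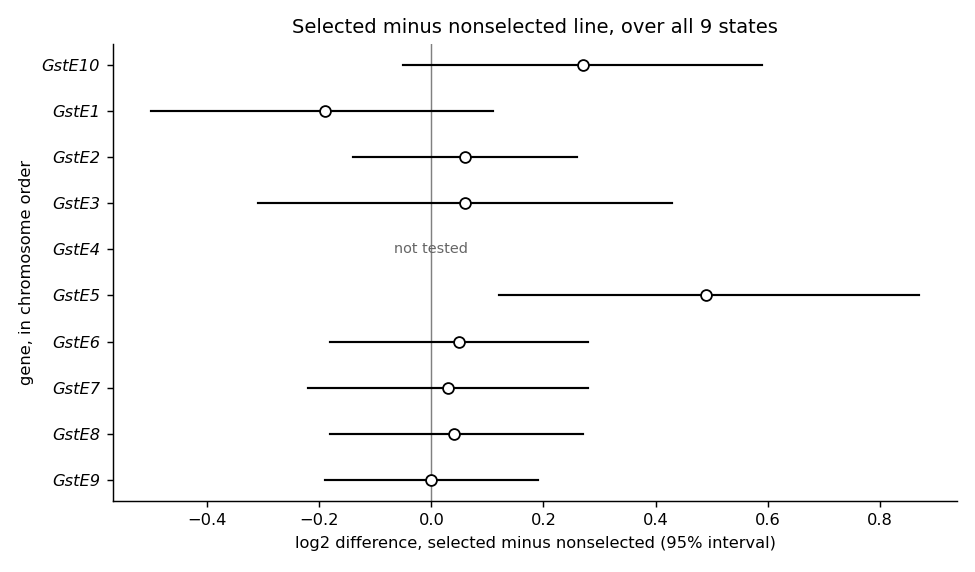
Log2 difference between selected and nonselected flies over all 9 states (horizontal axis, 95% interval, 18 arrays each) for the genes in chromosome order (vertical axis). Open points have an adjusted p not under 0.05, and no point is filled. The interval of GstE5 runs from 0.12 to 0.87, and the other 8 intervals include 0.

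GstE6 and GstE7 separated the replicate numbers. In all 18 groups replicate 1 had the higher value for both genes, as it had for 2% of all tested probe sets, with a mean difference of 0.45 ± 0.21 for GstE6 and 0.45 ± 0.31 for GstE7 (SD, n = 18 groups). GstE10 was higher in replicate 1 in 15 groups and GstE1 in 7. The GstE10 count includes pairs with no known order, since all its arrays from untreated flies to 2 h were under an intensity of 32. The 3' to 5' control ratio was also higher on replicate 1 arrays, and its part in these differences was not tested. The heat change of GstE7 at 1 h was 1.15 within replicate 1 and 1.22 within replicate 2, and its late minus early difference -1.49 and -1.52. For GstE6 the late minus early difference was -0.43 within replicate 1 and -0.41 within replicate 2.

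**Figure D5:**
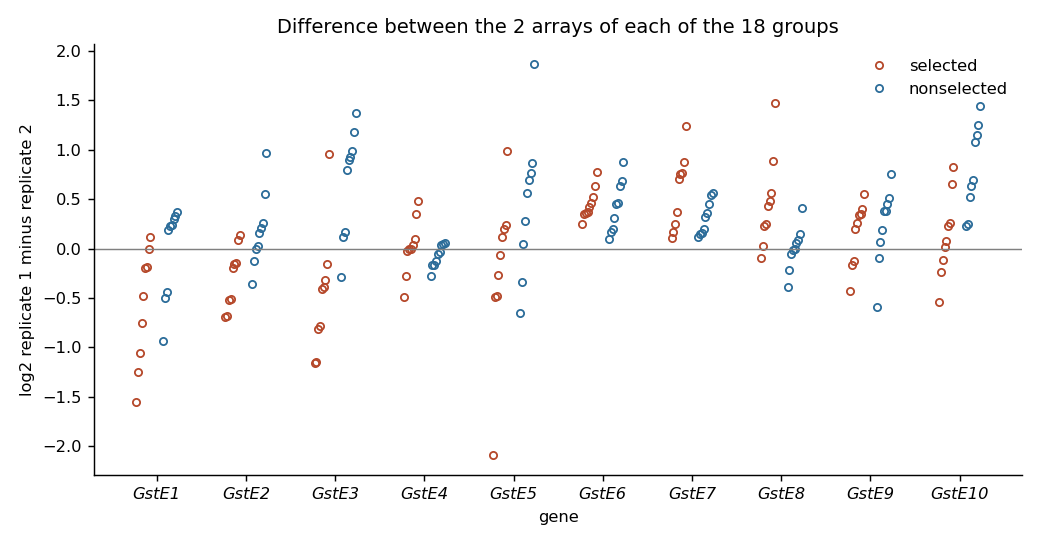
Log2 intensity of replicate 1 minus replicate 2 (vertical axis) for each gene (horizontal axis) in each of the 18 groups of line and time, with the selected line in red and the nonselected line in blue. All points of GstE6 and GstE7 lie above 0, and those of the other genes lie on both sides of 0.

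Other genes of glutathione conjugation were read from lists. Of the 4 other Epsilon genes, which lie outside the row, 3 were tested (GstE11, GstE12, GstE13) and none changed over the 8 times, beside 13.2% of all tested probe sets. Late against early, where the background was 18.2% higher and 17.1% lower, GstE12 was higher by 0.65 ± 0.15 (adjusted p = 0.00237). Of 11 Delta class genes, the other large insect class, 6 were tested and 3 changed over the 8 times: GstD2, GstD5 and GstD10. GstD2 rose by 1.90 ± 0.40 at 1 h (adjusted p = 0.0153) and by 2.05 ± 0.40 at 2 h (adjusted p = 0.00892), and 5 of the 6 tested were lower late than early. Of 11 tested Omega, Sigma, Theta, Zeta and microsomal genes, 4 changed over the 8 times, with GstO3 raised by 1.72 ± 0.34 at 1 h (adjusted p = 0.00945).

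Keap1 and cnc, the sensor and the transcription factor of the oxidative stress response that is known to induce glutathione genes, were listed with genes of glutathione synthesis and export. Of 11 tested, 3 changed over the 8 times, against the background of 13.2%: Gclm, Trxr1 and Mrp5. Gclm, the modifier subunit of the enzyme that limits glutathione synthesis, rose by 0.60 ± 0.11 at 1 h (adjusted p = 0.00263), and Keap1 by 0.99 ± 0.23 (adjusted p = 0.0346). The cnc change at 1 h was 0.05 ± 0.11. Mrp5, an ABC transporter of the multidrug resistance protein family, rose by 1.60 ± 0.40 at 16 h (adjusted p = 0.0337), the time at which GstE10 was highest.

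Of 23 tested cytochrome P450 genes of xenobiotic response, 9 changed over the 8 times (background 13.2%), and late against early 8 were higher (background 18.2%) and 3 lower (background 17.1%). Cyp6g1, known for DDT resistance, fell by 0.81 ± 0.16 on the log2 scale at 1 h (adjusted p = 0.0075) and was higher late than early by 0.86 ± 0.09. Of 7 tested heat shock genes and co-chaperones all 7 changed over the 8 times. Hsp68 rose by 5.68 ± 0.26 at 1 h (adjusted p = 1.75e-12). At 0.25, 1 and 2 h 5 of the 7 were higher, beside 42, 73 and 64 of 8199 probe sets.

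For each tested member the 3 genes of most similar course were taken by Pearson r over the 18 group means, from 6875 genes. Each group mean comes from the same 2 arrays for every gene, and no p is given. GstE1 was followed most closely by CG7945 (0.96), Sgt1, a co-chaperone, and ref(2)P, an autophagy receptor (0.93 each). GstE7 was followed by CG5290 (0.95), Stip1, the organising co-chaperone of Hsp70 and Hsp90, and CG7130 (0.94 each). For GstE3 these were CG12224 (0.92), CG5290 and Nop17l (0.87 each), and for GstE8 Nop17l, the sex determination gene tra (0.93 each) and Taf7, a subunit of a general transcription factor (0.92). GstE3 shared CG5290 with GstE7 and Nop17l with GstE8.

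GstE10 was followed by CG6465, CG18585 and CG17029 (0.96 each). Many of its group means are under 32, so these r rest partly on values without a known order. GstE9 was followed by CG9372 and fbp, the gene of fructose-1,6-bisphosphatase (0.91 each), and fon, a clotting factor gene (0.89). For GstE6 the nearest genes were Fst, known for its response to cold, CG1812 and Acbp6 (0.90 each). The nearest genes were less close for GstE5, at 0.81 for CG14257, and for GstE2, at 0.72 for CG9568.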

How the data were processed

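Whole female flies were measured on 36 arrays, and the 18 groups and the replicate numbers come from the labels. The authors deposited linear intensities made with GCRMA, per the submitters' processing notes. This method corrects background, normalizes between arrays and summarises probe sets. The annotation behind the probe names came from GEO's platform, with symbols updated through the RefSeq gene table: 1 symbol was found for 12443 of the 13966 probe sets besides controls, several for 327 and none for 1196. The RefSeq table served for names and gene order only, and no coordinates are printed, because the genome build behind the array's annotation is not given in the sources used here. Log2 was taken without a pseudocount. The number of arrays limits the precision, and p-values measure the spread between the 2 samples of a group. In the main fit this spread includes the difference between the replicate numbers. All members lie on an arm whose sequence is not reported here.

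Over 8199 probe sets, lmFit and eBayes of limma 3.58.1 (R 4.3.3) fitted a model with 18 group means. The heat change is the mean of both lines at a time minus that of the untreated groups. Adjusted p-values are Benjamini-Hochberg values over all 8199 within a contrast, at a threshold of 0.05. The fit was tested on simulated data. Members, lists and tests were chosen with earlier results of these data known. Every member is named, with list genes past the threshold as examples and the 3 genes of highest correlation. The alternatives were the replicate number as a block, array medians, quantile normalization, 2 other filters, log2 of intensity plus 32, trend and robust variances, fits of only the arrays compared, each replicate number alone, and each array left out.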

Additional observations from a re-analysis of the deposited data

Results flagged for a closer look

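Among 81 sets of 4 arrays (9 tested members at 9 states) 1 value lay far from the other 3. GstE10 on replicate 2 of the nonselected line at 1 h was 3.31, while the other arrays of that time were at 4.46, 4.56 and 4.58. Chance gives such a value in about 1 of 20 sets, and all 4 values were under an intensity of 32.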

How the results depend on the processing

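Counts of called members in the 13 comparisons stayed within 1.5 times under quantile normalization, no filter, the stricter filter (6041 probe sets, which leaves out GstE2, GstE5 and GstE10), log2 of intensity plus 32, and trend and robust variances. With array medians 1 member was called at 0.25 h (GstE7), and GstE3 was called at 1 h (1.40, adjusted p 0.0425). Late against early, 1087 probe sets were then higher and 2364 lower, against 1493 and 1404 in the main fit. Where only the arrays compared entered the fit, the counts at 1 h and 2 h were 0. Leaving out 1 array gave 0 to 1 members at 0.25 h, 1 to 3 at 1 h, 1 to 2 at 2 h, 0 to 1 at 16 h, 0 to 2 at 32 h and 0 to 1 between the lines. At 0.25 h the arrays whose absence gave a call were both of the selected line at 0.25 h (GstE1 or GstE7) and both of the selected line at 32 h (GstE8), and at 2 h those of the selected line at 0.25 h. GstE7 and GstE8 were called at 32 h without replicate 1 of the selected line at 32 h, and GstE10 at 16 h without replicate 2 of the nonselected line at 16 h. Same-numbered arrays had a correlation of their deviations from group means over 0.1 in 121 of 153 pairs of groups (range -0.43 to 0.78). The median was 0.33, and the labels do not say whether a number marks a shared batch. The main fit has no replicate block, so its spread includes the difference between the replicate numbers. Members not called in the main fit can therefore be called with the block. With the replicate block, 2 members were called at 0.25 h (GstE7, GstE8), 2 at 2 h (GstE1, GstE7) and 1 at 16 h (GstE10). The block also gave 1 at 32 h (GstE7), 2 at 64 h (GstE6, GstE10) and 1 between the lines (GstE5, adjusted p 0.0489). Of all 8199 probe sets it called 121, 180, 399, 257 and 615 at these times and 2349 between the lines. Over the series 7 members changed (GstE6 in addition, adjusted p 0.00144), and the probe sets called numbered 2064 against 1086 without the block. Within replicate 1, 2 members were called at 0.25 h, 2 at 2 h, 1 at 4 h and 1 at 8 h. Of all 8199 probe sets 76, 164, 21 and 108 were called at these times. At 16, 32 and 64 h and between the lines, 2, 1, 4 and 2 members were called, beside 575, 117, 645 and 582 probe sets. Within replicate 2, 1 was called at 0.25 h, 1 at 1 h and 4 between the lines, beside 25, 32 and 2975 probe sets. The settings by replicate use fewer arrays by construction, and the cause of the other shifts was not tested. None of the 29 member changes with an unadjusted p under 0.05 reversed in any setting, whereas 34 of the other 61 did in at least 1 setting, and no direction is drawn from those where a value is printed. GstE9 late against early had an adjusted p of 0.109 within replicate 2. A second probe set could not be tried, since each member has 1. Signal near background limits GstE2, GstE4, GstE5 and GstE10.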
